A study of Mus musculus with 62 samples.

Results

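The genes described here, Tspo, P2rx7, Cnr2 and Ptgs1, encode proteins that radioactive tracers bind when neuroinflammation is imaged in the living brain. They were taken by name from a matrix of 53801 gene identifiers, 4 of 53801 in all, under a rule that uses no measured value but was proposed with earlier results of these data known, and all 4 passed the filter on low counts. Its columns are 62 RNA-seq libraries made from brain cells of mice selected for CD11b, a marker that microglia carry. The design asks how amyloid-producing transgenes and loss of Nlrp3 alter these cells with age.

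TSPO sits in the outer membrane of mitochondria, binds cholesterol, and is the most widely used imaging target for reactive microglia. P2X7, the product of P2rx7, is a cation channel opened by extracellular ATP, and the loss of potassium through it is a classical trigger of the NLRP3 inflammasome. CB2, the product of Cnr2, is the cannabinoid receptor of immune cells, and COX-1, the product of Ptgs1, turns arachidonic acid into the precursor of prostaglandins and thromboxane and is carried by resting microglia.

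The 16 groups combine 4 genotypes with 4 sets. WT mice are wild type, NLRP3 mice are NLRP3-/-, APPPS1 mice carry the APP/PS1 transgenes, and APPPS1_NLRP3 mice carry the transgenes and are NLRP3-/-. Each genotype was sampled at 4, 6 and 12 months (4m, 6m and 12m), and a further set at 12 months is marked Mxo4 in the titles, a tag whose meaning was not given. The groups hold 3 to 5 libraries each. The transgenic line, the promoter of the transgenes, the strain and the number of mice per library are not given in the sources used here, and nothing says that libraries come from separate mice, so p-values reflect the spread from library to library, which may be technical.

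The median library had 18392142 counts and the deepest 27604393. A single library, APPPS1_6m replicate 21, was nearly empty at 659 counts, with 0 for each of the 4 genes. It was left out of levels but kept in the fit. The next lowest totals were 1394435 (NLRP3_12m replicate 45) and 6187249 (APPPS1_12m replicate 41). Nlrp3 itself read 60.4 to 271 CPM (counts scaled to a common library size with TMM factors) in 30 libraries with the gene and 0 to 2.27 CPM in 31 libraries without it. Read from sex-linked transcripts, 42 libraries came from females and 19 from males, and 1 could not be read. WT_12m and APPPS1_12m were female throughout, NLRP3_12m and APPPS1_NLRP3_12m male throughout, so Nlrp3 loss and sex cannot be told apart in the untagged 12-month set. The library labelled APPPS1_12m_Mxo4 replicate 56 stood apart. Cst7, a gene that responds to the transgenes, read 10.9 CPM there and 1649 to 2396 CPM in the other 3 libraries of its group. The comparisons and group means named here that include this library are therefore given with and without it. Correlations over group means and the alternative settings were run only with it. Without it 12.6% rather than 5.08% of tested genes were called in APPPS1 minus WT of the Mxo4 set. Marker sums, here and below, are in CPM scaled to library totals alone, without TMM factors. They are therefore not on the scale of the gene levels. A sum reads lower than on the TMM scale where the factor is under 1. This holds most for APPPS1_12m replicates 35 and 41, with factors of 0.79 and 0.745. Whether ranges of sums would overlap on the TMM scale was not tested. The 8 microglia markers summed to between 26882 and 43516 CPM. Sums for other cells were lower, at 13.2 to 2285 CPM for 8 neutrophil markers, 19.9 to 291 CPM for 7 monocyte markers, 144 to 1153 CPM for 6 markers of border-associated macrophages, and 68.1 to 953 CPM for 8 endothelial markers. Cd3e, Cd3d and Cd8a (T cells) and Ppbp and Gp6 (platelets) were too low to be tested.

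In GENCODE vM21 (GRCm38), Tspo (ENSMUSG00000041736) lies on the + strand of chr15:83563592-83574203 with 5 merged exons, 53 bp of which overlap Mcat on the other strand. P2rx7 (ENSMUSG00000029468) lies on the + strand of chr5:122643911-122691432 with 17 merged exons, of which 119 bp overlap the microRNA gene Mir8115. Cnr2 (ENSMUSG00000062585) lies on the + strand of chr4:135895394-135920207 with 3 merged exons and overlaps no annotated gene. Ptgs1 (ENSMUSG00000047250) lies on the + strand of chr2:36230426-36252272 with 11 merged exons, 148 bp of which overlap the antisense gene Gm43621. The strand setting of the counting is not given in the sources used here, so reads of Tspo and Mcat, or of Ptgs1 and Gm43621, in those stretches cannot be told apart.

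RefSeq (GRCm38.p6) promoter entries were found for 3 of the 4 genes, P2rx7, Cnr2 and Ptgs1. The 250 bases before the start are shown for P2rx7 and Ptgs1, the members that were lower together in APPPS1 at 12 months. Both are on the + strand, P2rx7 at chr5:122643677-122643926 and Ptgs1 at chr2:36230176-36230425. Capitals mark matches, on either strand, to 3 motifs: GGGCGG (GC box), GAGGAA (the core bound by PU.1, the master factor of microglia, and other ETS factors) and TGANTCA (AP-1), none of which overlaps another here.
P2rx7: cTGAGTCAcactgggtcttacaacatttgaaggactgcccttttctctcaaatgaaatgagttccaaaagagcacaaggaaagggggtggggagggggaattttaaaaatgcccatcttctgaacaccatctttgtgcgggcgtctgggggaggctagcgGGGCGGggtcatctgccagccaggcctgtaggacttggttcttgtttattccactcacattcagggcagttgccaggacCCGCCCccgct
Ptgs1: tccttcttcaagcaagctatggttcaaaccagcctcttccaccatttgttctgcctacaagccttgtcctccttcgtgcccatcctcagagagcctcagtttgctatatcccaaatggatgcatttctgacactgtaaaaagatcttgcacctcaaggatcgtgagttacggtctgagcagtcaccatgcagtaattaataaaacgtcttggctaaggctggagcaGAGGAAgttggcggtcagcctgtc
In P2rx7 the first capitals are an AP-1 match 249 bases before the start, followed by GC boxes 90 and 11 bases before it, the last on the opposite strand. In Ptgs1 the capitals are a GAGGAA match 24 bases before the start. Of 32851 promoters of this length, 32.7% held GGGCGG, 23.3% GAGGAA and 6.75% TGANTCA. No match was found in either Cnr2 entry or in the second P2rx7 entry. The matches describe letters only.

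Ptgs1 was the most abundant of the 4 transcripts and Cnr2 the least. Per kilobase of merged exon, the median level over 61 libraries was 265 CPM per kb for Ptgs1, 48.3 for Tspo, 32.4 for P2rx7 and 7.65 for Cnr2. Without length scaling, Tspo ranged from 32.4 to 261 CPM with a median of 50.8, P2rx7 from 99.3 to 235 with a median of 193, Cnr2 from 13.8 to 55.7 with a median of 30.5, and Ptgs1 from 700 to 1394 with a median of 1028. The highest group mean exceeded the lowest 4.88-fold for Tspo, 2.31-fold for Cnr2, 1.63-fold for Ptgs1 and 1.60-fold for P2rx7. The counts behind these levels had medians of 18308 for Ptgs1, 3434 for P2rx7, 943 for Tspo and 551 for Cnr2, and the smallest count was 19, for Cnr2 in NLRP3_12m replicate 45. In such bulk libraries, fewer cells of a type and less RNA per cell cannot be told apart.

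**Figure D1:**
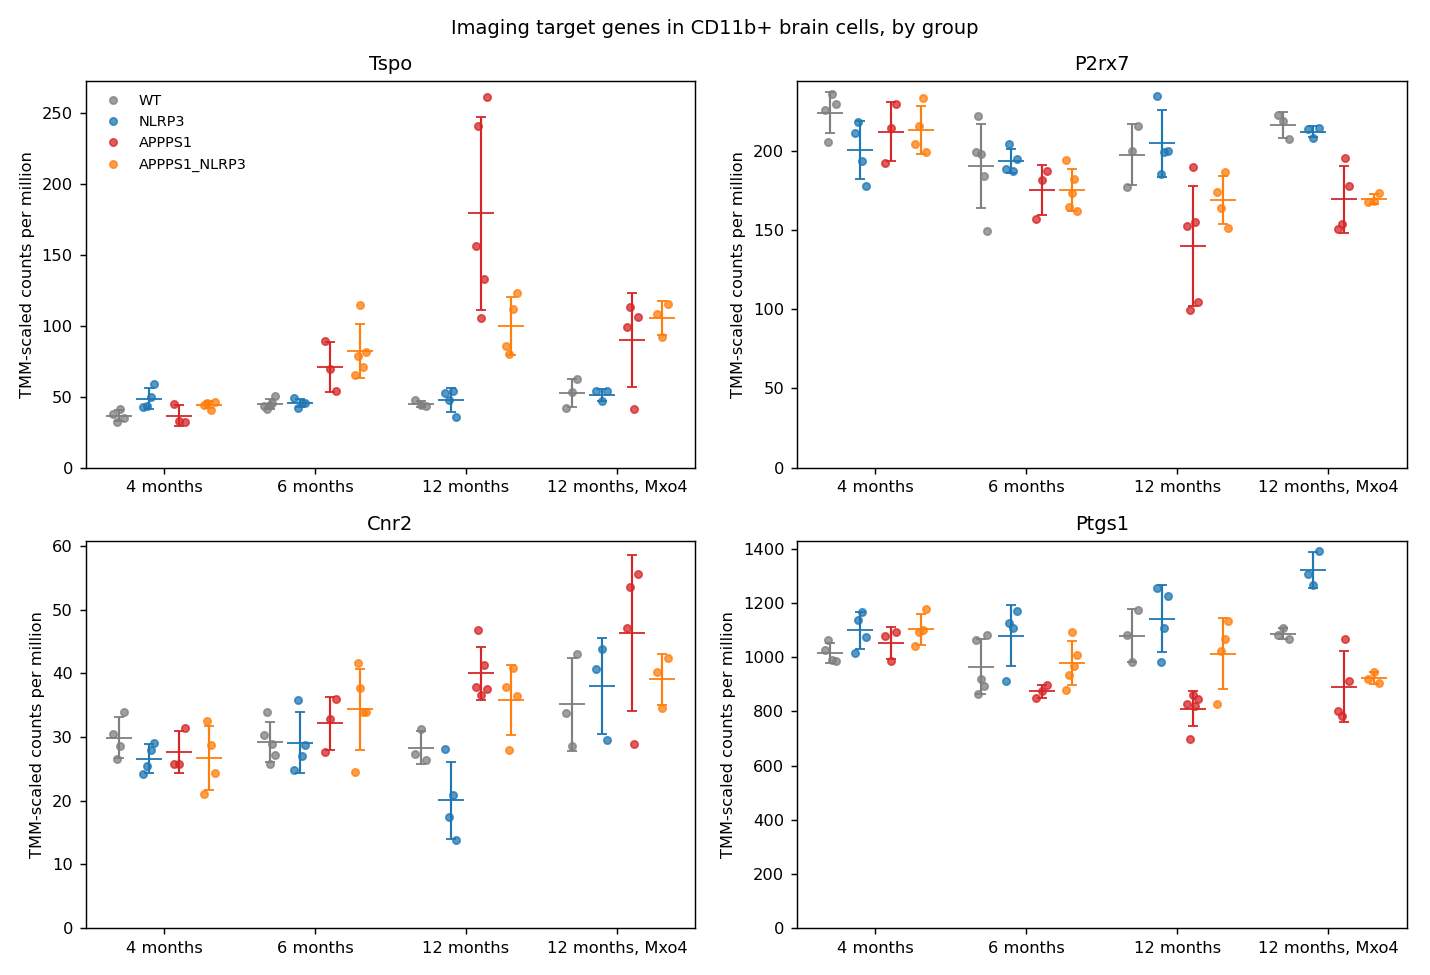
Levels of the 4 genes in each library (points) by set along the x axis, with the y axis in TMM-scaled CPM from 0, colours for genotype, and bars for the group mean ± SD. Tspo reaches 105 to 261 CPM in APPPS1_12m against 43.4 to 47.4 in WT_12m, and P2rx7 and Ptgs1 lie lowest on average in APPPS1_12m.

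Tspo was called in 5 of 8 transgene comparisons, more than any other of the 4 genes, and in none at 4 months. At 4 months it read 32.4, 32.7 and 45 CPM in APPPS1 and 32.5, 35.3, 37.9 and 41.2 CPM in WT. In mice lacking Nlrp3 it read 40.8, 44.1, 45.6 and 46.5 CPM with the transgenes and 42.8, 43.4, 49.6 and 58.9 CPM without. Those groups overlapped in both backgrounds, and the log2 differences were 0.01 ± 0.23 (SE, edgeR adjusted p = 1.0) and -0.14 ± 0.21 (adjusted p = 1.0). Neither edgeR nor DESeq2 called any of the 4 genes at 4 months in either background, and none had an unadjusted p under 0.05. There 0.0252% of 19865 tested genes were called for APPPS1 minus WT and 0.0101% for APPPS1_NLRP3 minus NLRP3.

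At 6 months Tspo read 54, 69.3 and 89.1 CPM in APPPS1 and 41.5, 43.8, 44, 45.7 and 50.8 CPM in WT. In mice lacking Nlrp3 it read 65.3, 71.1, 78.5, 81.4 and 114 CPM with the transgenes and 41.8, 45.4, 45.6 and 48.9 CPM without. Every transgenic library lay above every non-transgenic one in both backgrounds. The share of all tested genes that separate like this was not counted, here or in later comparisons. A separation of ranges is therefore not read as a difference by itself. The log2 difference was 0.63 ± 0.21 with Nlrp3, which was not called (edgeR adjusted p = 0.091), and 0.84 ± 0.20 without it, which was (adjusted p = 0.0039). Tspo was the only one of the 4 genes called in the background without Nlrp3, beside 8.03% of all tested genes, and none was called with Nlrp3, beside 3.03%, where Tspo alone had an unadjusted p under 0.05 and DESeq2 called none of the 4.

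At 12 months Tspo read 105, 133, 156, 241 and 261 CPM in APPPS1 and 43.4, 43.9 and 47.4 CPM in WT, and the lowest transgenic library was above the highest wild-type one. The 2 highest values belong to replicates 35 and 41, the libraries of that group with second title number 2. Tspo rose 4.01-fold (log2 2.00 ± 0.23, edgeR adjusted p = 3.6e-08), and the value stayed between 1.81 and 2.14 when each library was left out. Within libraries of each second title number the difference was 1.56 (3 against 1 library) and 2.47 (2 against 2). In mice lacking Nlrp3 it read 80.0, 85.6, 112 and 123 CPM with the transgenes and 35.6, 47.9, 52.8 and 53.8 CPM without, again with no overlap. The rise there was 2.03-fold (log2 1.02 ± 0.22, adjusted p = 0.0010), and within each second title number it was 1.12 and 0.91. All 4 genes were called in APPPS1 minus WT at 12 months, where 18.1% of tested genes were called, and Tspo and Cnr2 were called without Nlrp3, where 8.69% were.

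In the Mxo4 set Tspo read 41.1, 99.3, 106 and 113 CPM in APPPS1, the lowest value being replicate 56, and 42.1, 53.5 and 62.3 CPM in WT. The other 3 APPPS1 libraries lay above all WT libraries. Tspo rose by 0.78 ± 0.23 on the log2 scale (edgeR adjusted p = 0.033). Without replicate 56 the difference was 1.05 (adjusted p = 0.00013), and without any 1 of replicates 57, 58, 59, 60 and 61 it was 0.62 to 0.80 and lost its call (adjusted p from 0.093 to 0.23). The only APPPS1 library with second title number 2 is replicate 56, so the within-number values were 0.88 (3 against 2 libraries) and -0.04 (1 against 1). Without Nlrp3, Tspo read 92.2, 109 and 116 CPM with the transgenes and 46.7, 53.7 and 53.8 CPM without, with no overlap. It rose there 2.01-fold (adjusted p = 0.0065), and by 1.07 on the log2 scale within second title number 2 (3 against 2 libraries), the only number with both groups. Tspo was the 1 gene of the 4 called in APPPS1 minus WT, beside 5.08% of tested genes, and without replicate 56 Tspo, P2rx7 and Cnr2 were called, beside 12.6%. Tspo and Ptgs1 were called without Nlrp3, beside 5.14%.

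P2rx7 moved the other way at 12 months. It read 99.3, 104, 152, 155 and 189 CPM in APPPS1_12m and 177, 200 and 215 CPM in WT_12m. Only the highest APPPS1 library, replicate 37, reached into the WT range. P2rx7 fell by 0.52 ± 0.12 on the log2 scale, a level 1.43-fold lower (edgeR adjusted p = 0.0014), and the value stayed between -0.64 and -0.42 and called when each library was left out. It was -0.28 and -0.94 within the second title numbers. The 2 libraries with the least P2rx7, replicates 35 and 41, were those with the most Tspo, and replicate 37, with the most P2rx7, had the least Tspo of its group. This split follows the second title number, which is 2 for replicates 35 and 41 and 1 for replicates 36, 37 and 38. Replicates 35 and 41 also had the lowest TMM factors of all libraries, at 0.79 and 0.745. The part of either in the pattern was not tested.

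In the remaining transgene comparisons P2rx7 was not called. At 6 months it read 157, 181 and 187 CPM in APPPS1 and 149 to 222 CPM in WT (median 198), and the log2 difference was -0.13 ± 0.12 (edgeR adjusted p = 0.65). Without Nlrp3 at 12 months it read 151, 164, 174 and 186 CPM with the transgenes and 185, 199, 200 and 234 CPM without, groups that overlapped only between 185 and 186 CPM. The difference was -0.27 ± 0.12 (adjusted p = 0.18). In the Mxo4 set it read 150, 154, 178 and 195 CPM in APPPS1 and 207, 219 and 222 CPM in WT, which did not overlap. The difference was -0.36 ± 0.13 (adjusted p = 0.099), and without replicate 56, the highest of the APPPS1 libraries, it was -0.46 and called (adjusted p = 0.015). Without Nlrp3 in the Mxo4 set it read 167, 168 and 173 CPM with the transgenes and 208, 214 and 214 CPM without, again with no overlap, for a difference of -0.30 ± 0.14 (adjusted p = 0.25). The share of all tested genes that separate in either Mxo4 comparison was not counted, so these separations are not read as differences.

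**Figure D2:**
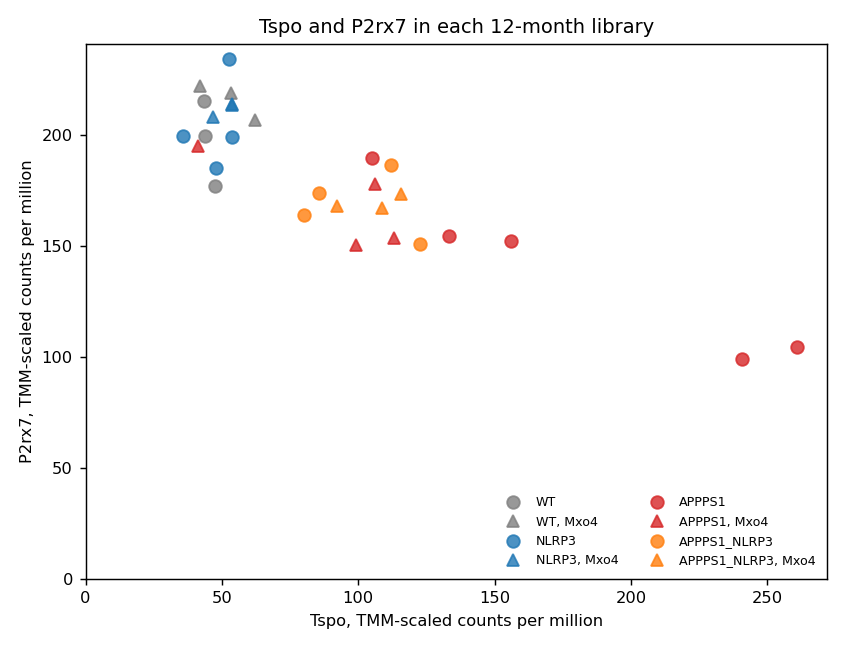
Each 12-month library by its Tspo level (x axis) and its P2rx7 level (y axis), both in TMM-scaled CPM from 0, with circles for untagged and triangles for Mxo4 libraries and colours for genotype. APPPS1_12m replicates 35 and 41, those of second title number 2 in their group, lie at the lower right. They have 241 and 261 CPM of Tspo and 99.3 and 104 CPM of P2rx7. The Mxo4 triangle among the non-transgenic libraries is APPPS1_12m_Mxo4 replicate 56.

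Cnr2, the least abundant of the 4, was higher with the transgenes at 12 months. It read 36.5, 37.5, 37.8, 41.4 and 46.8 CPM in APPPS1_12m and 26.3, 27.4 and 31.3 CPM in WT_12m, with no overlap. Cnr2 rose by 0.47 ± 0.17 on the log2 scale (edgeR adjusted p = 0.045), a call that was lost without any 1 of replicates 34, 35, 36, 39, 40 and 41 (0.38 to 0.51, adjusted p from 0.056 to 0.15). Without Nlrp3 at 12 months it read 28, 36.4, 37.8 and 40.8 CPM with the transgenes and 13.8, 17.4, 20.8 and 28.1 CPM without, groups that overlapped only at 28 CPM. The rise there was 1.73-fold (0.79 ± 0.17, adjusted p = 0.00098), and it stayed between 0.69 and 1.07 and called when each library was left out. Within the second title numbers it was 1.2 (2 against 3 libraries) and 0.18 (2 against 1). The non-transgenic group here, NLRP3_12m, held the lowest Cnr2 mean of all 16 groups, at 20 CPM. Its lowest value, 13.8 CPM in replicate 45, rests on 19 counts in a library of 1394435. APPPS1_NLRP3_12m stood at 35.8 CPM and the non-transgenic NLRP3_12m_Mxo4 at 38 CPM.

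Cnr2 was not called at 6 months, with log2 differences of 0.14 ± 0.16 (edgeR adjusted p = 0.72) with Nlrp3 and 0.24 ± 0.15 (adjusted p = 0.38) without it. In the Mxo4 set it read 28.8, 47.1, 53.6 and 55.7 CPM in APPPS1, replicate 56 again being lowest, and 28.5, 33.8 and 43.1 CPM in WT. The difference was 0.38 ± 0.17 (adjusted p = 0.24), and without replicate 56 it was 0.54 and called (adjusted p = 0.030). With a term for sex it was 0.53 (adjusted p = 0.039). Without Nlrp3 the Mxo4 groups overlapped, with 34.6, 40.2 and 42.4 CPM against 29.6, 40.7 and 43.9 CPM, and differed by 0.08 ± 0.19 (adjusted p = 0.89).

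The 4 transgene differences of Ptgs1 at 12 months, untagged and Mxo4, were all below 0, and 2 were called. It read 700, 821, 828, 844 and 859 CPM in APPPS1_12m and 983, 1082 and 1176 CPM in WT_12m, with no overlap. Ptgs1 fell by 0.39 ± 0.12 on the log2 scale, a level 1.31-fold lower (edgeR adjusted p = 0.016). The call was lost without replicate 35, the lowest APPPS1 library, or replicate 39, the highest WT library (-0.34 to -0.32, adjusted p from 0.070 to 0.084). Without Nlrp3 the untagged groups overlapped, with 829, 1025, 1067 and 1134 CPM against 982, 1108, 1224 and 1256 CPM, and differed by -0.19 ± 0.12 (adjusted p = 0.34).

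In the Mxo4 set without Nlrp3, Ptgs1 read 904, 921 and 947 CPM with the transgenes and 1265, 1307 and 1394 CPM without. These groups lay far apart, and Ptgs1 fell by 0.55 ± 0.13 on the log2 scale, a level 1.46-fold lower (edgeR adjusted p = 0.0065), called in each leave-out (-0.59 to -0.52). In that comparison 2 of 8 microglia markers and 1 of 4 tested platelet markers were lower, and 1 of 3 tested T and NK cell markers was higher. Platelet markers, from cells that carry Ptgs1, summed to 7.14 to 9.01 CPM with the transgenes and 15.6 to 21.6 CPM without, 2 of the 6 being at 0 in each group, and their part in the result was not tested. NLRP3_12m_Mxo4 held the highest Ptgs1 mean of all 16 groups and was the only group of any of the 4 genes whose range did not meet that of its neighbour in the order of means. Its lowest library read 1265 CPM and the highest of NLRP3_12m read 1256 CPM. How often neighbours separate among all tested genes was not counted, so the gap is not read as particular to Ptgs1. In APPPS1_12m_Mxo4 it read 784, 801, 913 and 1068 CPM, with replicate 56 highest, and in WT_12m_Mxo4 1068, 1083 and 1108 CPM, so that the groups did not overlap but met at 1068 CPM. The difference was -0.28 ± 0.12 (adjusted p = 0.20), and without replicate 56 it was -0.36 (adjusted p = 0.060). At 6 months Ptgs1 read 848, 875 and 897 CPM in APPPS1 and 863 to 1083 CPM in WT (median 921), and the differences were -0.20 ± 0.12 (adjusted p = 0.38) with Nlrp3 and -0.15 ± 0.11 (adjusted p = 0.46) without.

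**Figure D3:**
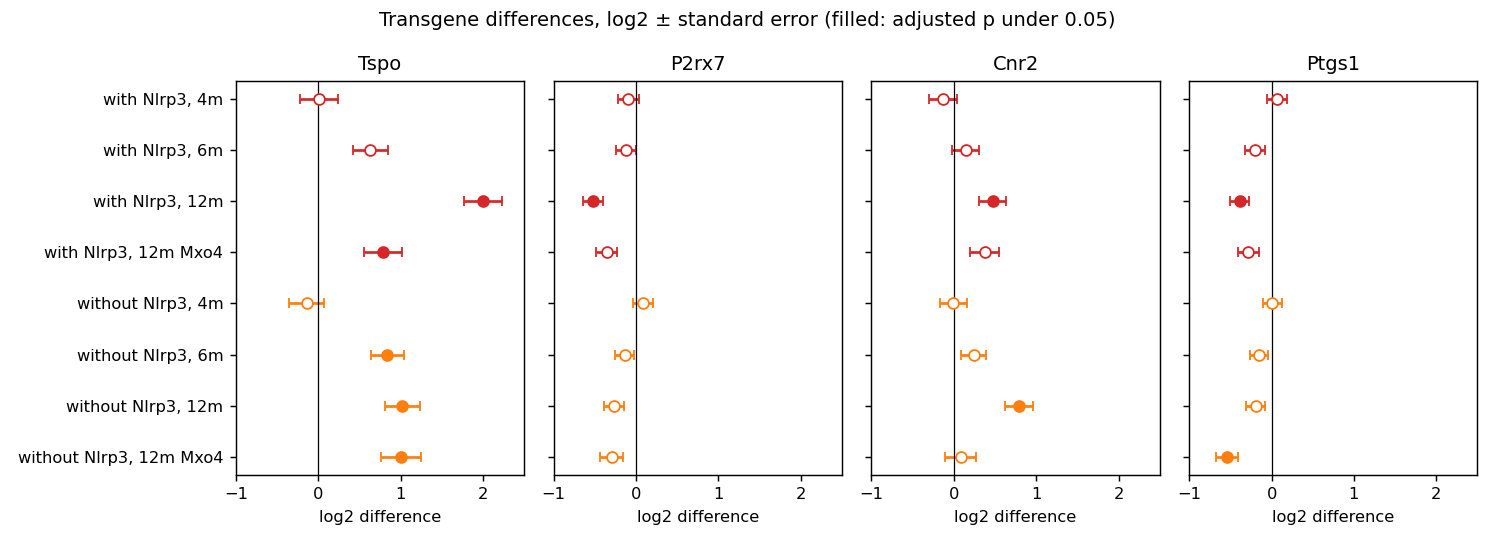
Log2 differences ± SE (x axis) of the 4 genes for transgenic minus non-transgenic mice, by set and Nlrp3 background (y axis), with filled points for adjusted p under 0.05. Tspo is filled in 5 of 8 comparisons, Cnr2 and Ptgs1 in 2 each and P2rx7 in 1, and the 12-month points of P2rx7 and Ptgs1 all lie below 0.

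Loss of Nlrp3 alone left the 4 genes uncalled. In NLRP3 minus WT, 0 of 16 member differences were called by edgeR, 1 had an unadjusted p under 0.05, and they ranged from -0.48 to 0.41 with a smallest adjusted p of 0.17. Called shares of all tested genes were 0.378% at 4 months, 0.443% at 6 months, 1.47% at 12 months and 0.0956% in the Mxo4 set. For Tspo at 4 months all 4 NLRP3 libraries lay above all WT libraries (0.41 ± 0.21, edgeR adjusted p = 0.60). For Ptgs1 in the Mxo4 set all 3 did (0.25 ± 0.13, edgeR adjusted p = 0.97). How many of all tested genes separate in this way was not counted, so neither separation is read as a difference. The lowest value was that of Cnr2 at 12 months, at 13.8, 17.4, 20.8 and 28.1 CPM in NLRP3 and 26.3, 27.4 and 31.3 CPM in WT. P2rx7, whose product feeds the NLRP3 inflammasome, differed by -0.16 ± 0.12 at 4 months, 0.02 ± 0.11 at 6 months, 0.02 ± 0.13 at 12 months and -0.00 ± 0.14 in the Mxo4 set, with edgeR adjusted p between 0.76 and 1.0.

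In mice with the transgenes, Nlrp3 loss went with less Tspo at 12 months. The 4 APPPS1_NLRP3_12m libraries lay between 80.0 and 123 CPM and the 5 APPPS1_12m libraries between 105 and 261 CPM, so that the groups overlapped. Tspo fell by 0.83 ± 0.20 on the log2 scale (edgeR adjusted p = 0.012), 1 of 16 member differences called. The call was lost without any 1 of replicates 41, 44 and 49 (-0.77 to -0.65, adjusted p from 0.050 to 0.068), and with a term for sex (-0.68, adjusted p = 0.16), and these 2 groups hold different sexes. Called shares of all tested genes were 0.206% at 4 months, 0.488% at 6 months, 5.71% at 12 months and 0.287% in the Mxo4 set. Of the endothelial markers, 5 of 8 were lower in APPPS1_NLRP3_12m than in APPPS1_12m, with sums of 79.6 to 157 CPM against 164 to 327 CPM. Of the monocyte markers, 2 of 7 were lower, with sums of 32.1 to 62.6 against 25.1 to 291 CPM. The 291 CPM is APPPS1_12m replicate 38, and the median sums went the other way, at 40.7 against 31.9 CPM. Of the neuronal markers 2 of 4 were higher, and of the T and NK cell markers 1 of 3 tested was lower. No defining marker of endothelium or monocytes was at 0 throughout, and their part in the Tspo difference was not tested. Tspo in the Mxo4 set differed by 0.15 ± 0.24 (adjusted p = 0.99), at 92.2 to 116 CPM against 41.1 to 113 CPM, and without replicate 56 the direction turned, at -0.17 ± 0.21 (adjusted p = 0.95). None of the 4 genes was called there without replicate 56 either, beside 0.327% of tested genes.

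At 12 months P2rx7 and Ptgs1 were not called for Nlrp3 loss in transgenic mice, at 0.28 ± 0.11 (edgeR adjusted p = 0.12) and 0.31 ± 0.11 (adjusted p = 0.073). Without APPPS1_12m replicate 37 both were called, at 0.40 (adjusted p = 0.014) and 0.34 (adjusted p = 0.045). Without the nearly empty library Ptgs1 was called at 0.30 (adjusted p = 0.026). With a term for sex neither was called, at 0.24 for P2rx7 (edgeR adjusted p = 0.41) and 0.30 for Ptgs1 (adjusted p = 0.15). The APPPS1_NLRP3_12m libraries are all male and the APPPS1_12m ones all female. The interaction subtracts the transgene difference in mice with Nlrp3 from that in mice without, and it was called by edgeR for 0 of 16 member values, of which 1 had an unadjusted p under 0.05. Over all tested genes edgeR called 0.0% at 4 months, 0.0151% at 6 months, 0.0% at 12 months and 0.0% in the Mxo4 set. In the Mxo4 set the interaction was 0.22 for Tspo, 0.06 for P2rx7, -0.30 for Cnr2 and -0.26 for Ptgs1. Without replicate 56 these values were -0.07, 0.17, -0.47 and -0.18, none called, beside 0.0% of tested genes. Genes with an unadjusted p under 0.05 numbered 355 at 4 months, 1465 at 6 months, 1961 at 12 months and 802 in the Mxo4 set, and DESeq2 called 2, 10, 111 and 0 genes. The interaction of Tspo at 12 months was -0.98 ± 0.31 (edgeR adjusted p = 0.21, DESeq2 adjusted p = 0.091), and without APPPS1_12m replicate 37 it was -1.11 and called (adjusted p = 0.045), so the sizes of the Tspo rise with and without Nlrp3 are set side by side here without a called difference.

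Between 4 and 12 months, 5 of 16 member differences were called, all of them in transgenic mice. In WT and NLRP3 mice 0 of 8 differences were called by edgeR, with 1 unadjusted p under 0.05 (Cnr2 in NLRP3, -0.37 ± 0.17, adjusted p = 0.30), beside 0.0252% and 0.418% of all tested genes. Tspo differed there by 0.27 ± 0.23 and 0.02 ± 0.21. In both genotypes lacking Nlrp3 the 4-month libraries were all female and the untagged 12-month ones all male. Age and sex therefore cannot be told apart within those age comparisons. In APPPS1 mice Tspo rose by 2.27 ± 0.24 (edgeR adjusted p = 5.6e-09) and Cnr2 by 0.54 ± 0.17 (adjusted p = 0.015), while P2rx7 fell by 0.59 ± 0.12 (adjusted p = 0.00019) and Ptgs1 by 0.38 ± 0.12 (adjusted p = 0.014). All 4 were called there, beside 22.3% of all tested genes. Among markers of other cells, 5 of 8 for neutrophils and 3 of 7 for monocytes were higher, and 2 of 6 for border-associated macrophages were lower. Their sums in APPPS1_4m and APPPS1_12m were 45.5 to 114 and 40.3 to 2285 CPM for neutrophils, 25.3 to 50.9 and 25.1 to 291 CPM for monocytes, and 340 to 594 and 144 to 331 CPM for border-associated macrophages. The highest neutrophil and monocyte sums in APPPS1_12m were both those of replicate 38. Median sums were 49.7 and 59.5 CPM for neutrophils and 45.9 and 31.9 CPM for monocytes. Of the microglia markers 3 of 8 were lower and 1 higher. Of the endothelial, neuronal and tested platelet markers 1 each was lower, and of 3 tested B cell markers 1 was higher and 1 lower. Platelet markers, from cells that carry Ptgs1, summed to 19.4 to 24.9 CPM in APPPS1_4m and 5.5 to 16.8 CPM in APPPS1_12m. The part of these cells in the age differences was not tested. The call of Cnr2 was lost without any 1 of replicates 3, 6 and 35 (0.46 to 0.54), and that of Ptgs1 without replicate 2 or 35 (-0.34 to -0.32). In APPPS1_NLRP3 mice Tspo rose by 1.18 ± 0.21 (adjusted p = 8.5e-05), the 1 gene of the 4 called, beside 12.1% of tested genes. Lower there were 3 of 8 endothelial markers, 3 of 6 for border-associated macrophages, and 1 each of the microglia, tested platelet and tested T and NK cell markers. Of 3 tested B cell markers 1 was higher and 1 lower. The part of these cells was not tested. P2rx7 differed by -0.34 ± 0.12 (adjusted p = 0.053), and without the nearly empty library it was called at -0.34 (adjusted p = 0.037). Cnr2 differed by 0.43 ± 0.16 (adjusted p = 0.074) and Ptgs1 by -0.12 ± 0.11 (adjusted p = 0.55). With a term for sex Cnr2 was called at 0.78 (adjusted p = 0.0014), the 12-month libraries of that genotype being male and the 4-month ones female, and without replicate 44 it was called at 0.51 (adjusted p = 0.046). The APPPS1_12m libraries serve in the age, transgene, tag and Nlrp3 comparisons alike, and so do the NLRP3_12m libraries. The values of those comparisons are therefore not independent of each other.

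Between Mxo4 and untagged libraries at 12 months, 2 of 16 member differences were called. Tspo was lower in APPPS1_12m_Mxo4, at 41.1 to 113 CPM, than in APPPS1_12m, at 105 to 261 CPM, and fell by 0.95 ± 0.20 on the log2 scale (edgeR adjusted p = 0.0060). Without replicate 56 the difference was -0.66 (adjusted p = 0.033). The untagged APPPS1 libraries were all female and the tagged ones 1 female and 3 male, and with a term for sex the difference was -0.87 (adjusted p = 0.039). Endothelial markers were lower in the tagged APPPS1 libraries for 5 of 8, with sums of 81.7 to 157 CPM against 164 to 327 CPM. Lower too were 2 of 7 monocyte markers, with sums of 25.1 to 58 (median 28.3) against 25.1 to 291 CPM (median 31.9, highest in replicate 38). So were 1 each of the microglia, border-associated macrophage, neuronal and tested B cell markers. The part of these cells in the Tspo difference was not tested. Cnr2 was higher in NLRP3_12m_Mxo4, at 29.6, 40.7 and 43.9 CPM, than in NLRP3_12m, at 13.8 to 28.1 CPM, without overlap. It rose by 0.90 ± 0.18 (adjusted p = 0.0027) and was called in each leave-out (0.76 to 1.19). The tagged NLRP3 libraries were 1 female and 2 male and the untagged ones 4 male, and with a term for sex the difference was 0.78 (adjusted p = 0.0047). Neuronal markers were lower in the tagged libraries for 3 of 4, with sums of 6.19 to 16.7 CPM against 43.2 to 327 CPM, and astrocyte markers for 1 of 7, and their part was not tested. Called shares of all tested genes were 0.166% in WT, 6.62% in NLRP3, 6.38% in APPPS1 (2.86% without replicate 56) and 0.916% in APPPS1_NLRP3.

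The order of groups differed between the genes. For Tspo the 6 transgenic groups of 6 and 12 months held the 6 highest means, from 179 ± 68 CPM (SD, n = 5) in APPPS1_12m through 105 ± 12 (n = 3) in APPPS1_NLRP3_12m_Mxo4, 100 ± 20.5 (n = 4) in APPPS1_NLRP3_12m, 90.0 ± 33.1 (n = 4) in APPPS1_12m_Mxo4 and 82.1 ± 19.1 (n = 5) in APPPS1_NLRP3_6m to 70.8 ± 17.6 (n = 3) in APPPS1_6m, and the other 10 group means lay between 36.7 and 52.6 CPM. For P2rx7 the same 6 groups held the 6 lowest means, from 175 ± 16 CPM (n = 3) in APPPS1_6m down to 140 ± 38 (n = 5) in APPPS1_12m, and the highest was WT_4m at 224 ± 13 (n = 4). Cnr2 was highest in APPPS1_12m_Mxo4 at 46.3 ± 12.2 CPM (n = 4) and lowest in NLRP3_12m at 20 ± 6.1 (n = 4). Ptgs1 was highest in NLRP3_12m_Mxo4 at 1322 ± 66 CPM (n = 3), followed by NLRP3_12m at 1142 ± 125 (n = 4), and lowest in APPPS1_12m at 810 ± 64 (n = 5). Of 15 pairs of neighbours in each order, ranges overlapped in all 15 for Tspo, P2rx7 and Cnr2 and in all but the first for Ptgs1. The share of such pairs over all tested genes was not counted. Without replicate 56 the means of APPPS1_12m_Mxo4 (n = 3) were 106 ± 7.0 CPM for Tspo, now second highest, 161 ± 15 for P2rx7, 52.1 ± 4.5 for Cnr2, still highest, and 833 ± 70 for Ptgs1.

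Over the 16 group means of log2 CPM, Tspo and P2rx7 were inversely related (Pearson r = -0.93, Spearman rho = -0.76), P2rx7 and Ptgs1 directly (r = 0.80, rho = 0.76), and Tspo and Cnr2 directly but less closely (r = 0.68, rho = 0.78). These points share libraries and scaling, include replicate 56, and describe the groups only. Among 10102 tested genes of at least 5 CPM, those with the pattern most like Tspo were Rps27l (r = 0.99), Prdx1 (r = 0.99), which encodes a peroxidase, Serp1 (r = 0.99), Bst2 (r = 0.98), an interferon-induced gene, and Atp6v0e (r = 0.98), a part of the proton pump of lysosomes. Most like P2rx7 were Plxna4, Ulk3, Atp6v0a2, Prkca and Elmo1 (r from 0.95 to 0.96). Most like Cnr2 were Parp12, Chn2, Ero1lb, Eri1 and Hlx (r from 0.91 to 0.92). Most like Ptgs1 were Duoxa1 (r = 0.95), Ktn1, Slc2a5, a fructose carrier typical of microglia, Plod1 and Bin2 (r down to 0.90).

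The genes that work with each target were described from lists of pathway members. Of 15 TSPO partners, proteins of the mitochondrial membranes and of steroid synthesis, 13 were tested, and Tspo2 and Cyp11a1 were too low. Of these, 3 rose in APPPS1 at 12 months and none fell, a share of 23.1% beside the 18.1% of all genes, and the median log2 difference of the 13 was 0.17 against -0.08 over all tested genes. Dbi, whose product is an endogenous ligand of TSPO, rose by 0.65 ± 0.22 (edgeR adjusted p = 0.033), from 42.8 ± 9.9 CPM (SD, n = 3) to 67.7 ± 22.4 (n = 5). Slc25a4, which encodes an exchanger of ADP and ATP, rose by 0.49 ± 0.16 (adjusted p = 0.027), and Vdac2, a pore of the outer membrane, by 0.33 ± 0.11 (adjusted p = 0.027). Each of the 3 calls was lost in 4 of 8 leave-outs: Dbi without replicates 35, 39, 40 or 41 (0.46 to 0.60), Slc25a4 without 34, 35, 40 or 41 (0.33 to 0.47) and Vdac2 without 34, 39, 40 or 41 (0.14 to 0.36). Leaving out 1 library moved the count from 3 to between 0 and 6. None of the 13 was called in the other 5 transgene comparisons at 6 and 12 months, where Tspo itself was called in 4.

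Of 21 genes of purine receptors and ATP handling, 19 were tested, P2rx2 and P2rx5 being too low. In APPPS1 at 12 months 2 rose and 2 fell (21.1% beside 18.1% of all genes), with a median of -0.36 against -0.08. Leaving out 1 library moved the count from 4 to between 2 and 5. P2rx4, which encodes another ATP-gated channel of the P2X family, rose while P2rx7 fell, from 94.0 ± 7.5 CPM (n = 3) to 163 ± 30 (n = 5), by 0.81 ± 0.11 (edgeR adjusted p = 5.8e-07). It rose without Nlrp3 too, by 0.68 ± 0.11 at 12 months (adjusted p = 2.1e-05) and 0.62 ± 0.10 at 6 months (adjusted p = 2.6e-05), and was called in each leave-out of these 3 comparisons. Adora1, an adenosine receptor, rose from 6.80 ± 3.61 CPM to 20.2 ± 5.2 in APPPS1 at 12 months (1.44 ± 0.38, adjusted p = 0.0047), a call lost without replicate 40 (1.08). It rose by 2.12 ± 0.35 at 6 months (adjusted p = 7.5e-05), called in each leave-out, and without Nlrp3 by 1.11 ± 0.33 at 6 months (adjusted p = 0.027), lost without replicates 27, 28, 31, 32 or 33 (0.97 to 1.14).

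P2ry6, a receptor for UDP that promotes phagocytosis, fell in APPPS1 at 12 months by 0.38 ± 0.11 (edgeR adjusted p = 0.010), called in each leave-out. It fell by 0.38 ± 0.11 at 6 months (adjusted p = 0.041), lost without replicates 16, 18, 19, 20, 22, 23 or 24 (-0.41 to -0.31), and by 0.37 ± 0.11 without Nlrp3 at 12 months (adjusted p = 0.020), lost without replicates 44, 45 or 49 (-0.35 to -0.33). Ada, adenosine deaminase, fell in APPPS1 at 12 months from 3.80 ± 0.38 CPM to 2.10 ± 1.08 (-0.81 ± 0.29, adjusted p = 0.043), lost without replicates 34, 35, 36, 39, 40 or 41 (-0.88 to -0.65). Without Nlrp3 at 12 months the list's count of 4 called genes ran from 1 to 4 in leave-outs. Of these genes 1 rose and 3 fell (21.1% beside 8.69%), with a list median of -0.41 against -0.05. Besides P2ry6 these were Entpd2, which breaks down ATP, from 3.26 ± 3.40 CPM to 0.90 ± 0.49 (-2.05 ± 0.59, adjusted p = 0.018, lost without replicates 43, 44 or 47 at -1.90 to -1.25), and Adora3 (-0.37 ± 0.11, adjusted p = 0.032, lost without 42, 44, 45 or 46 at -0.35 to -0.29). At 6 months 2 of 19 were called in each background (10.5%), beside 3.03% of all genes with Nlrp3 and 8.03% without. In leave-outs these counts ran from 1 to 2 with Nlrp3 and from 1 to 3 without.

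Of 11 endocannabinoid genes 10 were tested, Gpr55 being too low, and Cnr1, the receptor of neurons, read 0.74 CPM at the median. In APPPS1 at 12 months 2 rose and 3 fell (50% beside 18.1%), with a median of -0.36 against -0.08. Abhd12, a lipid hydrolase, rose from 1229 ± 96 CPM (n = 3) to 1934 ± 395 (n = 5), by 0.68 ± 0.14 (edgeR adjusted p = 0.00038). It rose without Nlrp3 by 0.58 ± 0.14 at 12 months (adjusted p = 0.0031) and 0.52 ± 0.13 at 6 months (adjusted p = 0.0059), and was called in each leave-out of these 3. Mgll, which degrades the endocannabinoid 2-arachidonoylglycerol, fell from 52.9 ± 10.7 to 35.5 ± 3.9 CPM (-0.60 ± 0.17, adjusted p = 0.0084, lost without replicate 39 at -0.42). Without Nlrp3 Mgll fell by 0.67 ± 0.17 (adjusted p = 0.0049, lost without replicate 47 at -0.48). Dagla, which makes that endocannabinoid, fell in APPPS1 by 0.67 ± 0.19 (adjusted p = 0.0094, lost without replicate 40 at -0.54), and Naaa, a hydrolase of fatty acid amides, rose by 0.39 ± 0.11 (adjusted p = 0.011, lost without replicates 39 or 41 at 0.29 to 0.32). Daglb, named after its values were seen, fell by 0.29 ± 0.10 (adjusted p = 0.036). Leaving out 1 library moved the count from 5 to between 2 and 7. Without Nlrp3, 1 rose and 1 fell at 12 months (20% beside 8.69%) and 1 rose at 6 months (10% beside 8.03%).

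Of 21 prostanoid genes 19 were tested, Slco2a1 and Ptgdr being too low. In APPPS1 at 12 months 3 rose and 2 fell (26.3% beside 18.1%), with a median of 0.03 against -0.08. Leaving out 1 library moved the count from 5 to between 3 and 6. Ptgs2, which encodes the inducible enzyme COX-2, rose while Ptgs1 fell, from 36.4 ± 6.5 CPM (n = 3) to 169 ± 40 (n = 5), by 2.21 ± 0.37 (edgeR adjusted p = 1.6e-05). Ptger4, a receptor for prostaglandin E2, rose from 15.9 ± 3.8 to 63.9 ± 10.1 CPM, by 1.97 ± 0.27 (adjusted p = 4.3e-07), and Ptger3, another receptor for it, fell from 10.4 ± 4.9 to 1.75 ± 0.42 CPM (-2.53 ± 0.55, adjusted p = 0.00058). These 3 were called in each leave-out. Abcc4, which exports prostaglandins, fell by 0.63 ± 0.20 (adjusted p = 0.025, lost without replicates 34, 35, 40 or 41 at -0.62 to -0.50), and Tbxas1, thromboxane synthase, named here after its value was seen, rose by 0.26 ± 0.09 (adjusted p = 0.028). Per kilobase, Ptgs1 at a median of 265 CPM per kb stood above Ptgs2 at 10.2.

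Without Nlrp3 at 12 months 3 prostanoid genes rose and 1 fell (21.1% beside 8.69%), with a median of -0.10 against -0.05. The count of 4 ran from 3 to 4 in leave-outs. Ptgs2 rose by 1.31 ± 0.34 (edgeR adjusted p = 0.0093), Ptger4 by 1.15 ± 0.25 (adjusted p = 0.0016) and Tbxas1 by 0.37 ± 0.08 (adjusted p = 0.0022), each called in every leave-out, and Ptger3 fell by 1.68 ± 0.52 (adjusted p = 0.032), lost without replicates 42, 43, 46, 47, 48 or 49 (-1.72 to -1.40). Without Nlrp3 at 6 months Ptgs2 rose by 2.30 ± 0.33 (adjusted p = 4.4e-06), Ptger4 by 1.42 ± 0.24 (adjusted p = 4.0e-05) and Abcc4 fell by 0.85 ± 0.19 (adjusted p = 0.0013), again called in every leave-out, 15.8% of the list beside 8.03%. The count of 3 there ran from 3 to 6 in leave-outs. In APPPS1 at 6 months none of the 19 was called, and 0 to 1 in leave-outs.

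The last list holds 12 further genes proposed or used as imaging targets, all tested, of which Ptgs2 also stands among the prostanoid genes and P2ry12 among the purine genes. In APPPS1 at 12 months 4 rose and none fell (33.3% beside 18.1%), with a median of 0.49 against -0.08. Besides Ptgs2 these were Cybb, the catalytic part of the NADPH oxidase, from 45.3 ± 8.8 CPM (n = 3) to 198 ± 59 (n = 5) (2.13 ± 0.30, edgeR adjusted p = 8.8e-07), Gpr84, a receptor for medium-chain fatty acids, from 113 ± 36 to 257 ± 28 CPM (1.18 ± 0.27, adjusted p = 0.0013), and Folr2, a folate receptor of macrophages, from 9.11 ± 2.57 to 42.1 ± 34.2 CPM (2.17 ± 0.58, adjusted p = 0.0060). All 4 were called in every leave-out. None of 6 markers of border-associated macrophages, cells that carry Folr2, was called in that comparison, and their part in the Folr2 difference was not tested. In APPPS1 at 6 months only Cybb rose (1.11 ± 0.27, adjusted p = 0.013), lost without replicates 17, 23 or 24 (0.96 to 1.05). Without Nlrp3 at 6 months Ptgs2, Gpr84 (1.13 ± 0.24, adjusted p = 0.0012) and Cybb (1.02 ± 0.26, adjusted p = 0.0071, lost without replicate 27 at 0.88) rose, and at 12 months only Ptgs2 did.

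**Figure D4:**
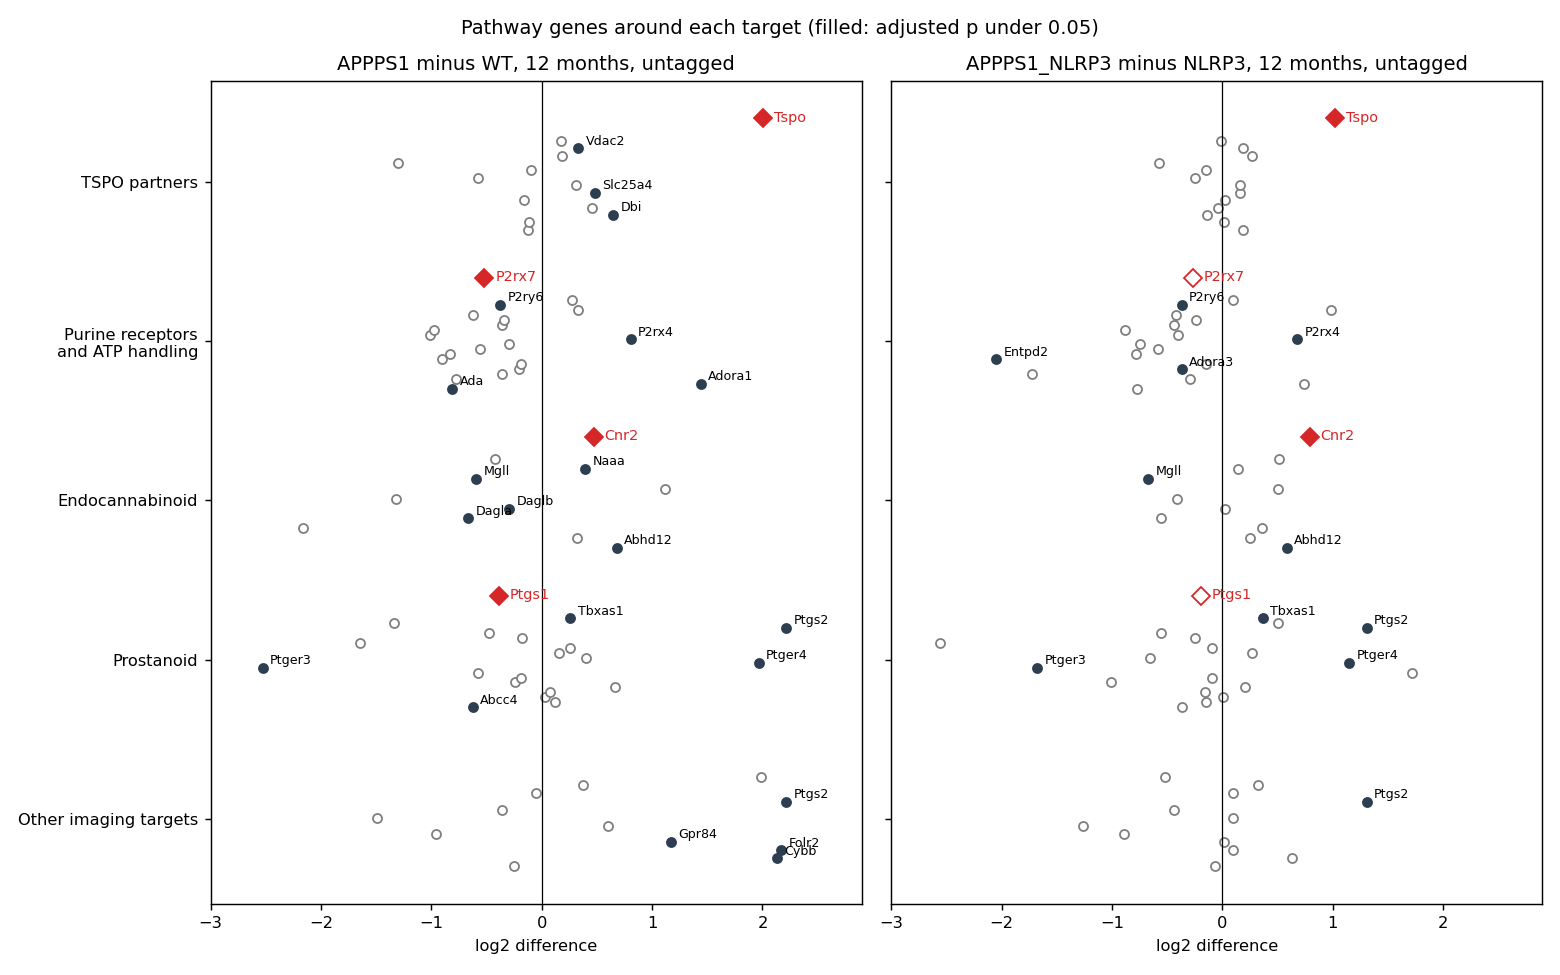
Log2 transgene differences at 12 months, untagged (x axis), of the genes of each list (circles, y axis) and of the member that the list belongs to (red diamonds), filled and labelled where adjusted p was under 0.05, with Nlrp3 at the left and without at the right. P2rx4 lies at 0.81 where P2rx7 lies at -0.52, and Ptgs2 at 2.21 where Ptgs1 lies at -0.39.

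The list genes of the Mxo4 set were all named after their values were seen. There APPPS1 minus WT, beside 5.08% of all genes, called 5 of 19 purine genes (Adora1 higher, at 1.99 ± 0.41, and Adora3, P2rx1, P2ry6 and P2ry13 lower, at -0.60, -1.03, -0.43 and -0.51), 1 of 19 prostanoid genes (Ptger4, 1.29 ± 0.27), and none of the TSPO partners, the endocannabinoid genes or the further imaging targets. Without replicate 56, beside 12.6% of all genes, the same comparison called 10 of 19 purine genes, 2 higher and 8 lower, 3 of 19 prostanoid genes (Ptger4 at 1.59 and Ptgs2 at 1.40 higher, Ptger3 at -3.20 lower), 1 of 10 endocannabinoid genes (Abhd12, 0.56), 5 of 12 further imaging targets (Ptgs2, Gpr84 at 1.05 and Cybb at 1.03 higher, P2ry12 at -0.66 and Maob at -2.13 lower) and none of the TSPO partners. The purine genes that joined were P2rx4, higher at 0.46, and P2ry12, Entpd2, Ada and Adora2b, lower at -0.66, -2.22, -1.20 and -2.12. In mice lacking Nlrp3 the comparison, beside 5.14% of all genes, called 4 purine genes (Adora1 at 2.31 and P2rx4 at 0.59 higher, P2ry13 at -0.60 and P2ry12 at -0.61 lower), Mgll (-0.67), 4 prostanoid genes (Ptger4 at 1.56 and Ptgs2 at 2.11 higher, Ptger3 at -3.07 and Pla2g4a at -0.47 lower) and 4 further imaging targets (Ptgs2, Cybb at 1.09 and S1pr1 at 0.60 higher, and P2ry12). P2ry12, the ADP receptor that marks resting microglia, read 4284 ± 533 CPM with the transgenes and 6027 ± 427 without there (n = 3 each, edgeR adjusted p = 0.0499).

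Markers of other cells moved with some of these comparisons. In APPPS1 minus WT at 12 months 2 of 7 monocyte markers rose, and their sum was 25.1 to 291 CPM in APPPS1, highest in replicate 38, against 33 to 58 CPM in WT. Neutrophil markers, none of 8 called, summed to 40.3 to 2285 CPM, again highest in replicate 38, against 79.8 to 245 CPM. Replicate 38 held 156 CPM of Tspo, between the others of its group. These counts stand beside the 18.1% of all genes called. Of the microglia markers 2 of 8 were lower and 1 higher, of the endothelial markers 1 of 8 was lower, of the astrocyte markers 1 of 7 was higher, and of the tested B cell and T and NK cell markers 2 of 3 and 1 of 3 were called. In APPPS1_NLRP3 minus NLRP3 at 12 months 1 each of the microglia, endothelial, astrocyte, oligodendrocyte and tested platelet markers was lower, and 1 of the 3 tested T and NK cell markers was higher, beside 8.69% of all genes. The part of these cells in the differences of the 4 genes was not tested.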

How the data were processed

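The authors deposited 1 matrix of gene counts, with a column for each of 62 libraries, in counts of reads per gene without normalization. Per the submitters' processing notes they used Trimmomatic, TopHat and HTSeq with mm10, and versions, annotation and strand setting are not given in the sources used here. Per the labels' protocols RNA (10 ng) was amplified with SMART-Seq v4, libraries were prepared in 2 batches and read in pairs of 125 bp. No molecular identifiers are mentioned, so amplified copies count as reads and no value here allows for them.

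Samples were grouped by the genotype, age and tag of their titles, and replicates carry the last title number, which occurs once each. The members and lists were chosen with earlier results of these data known. Counts were fitted with edgeR 4.0.16 (R 4.3.3): filterByExpr with minimum count 10 and total 15 kept 19865 genes, with TMM factors, a robust quasi-likelihood fit of all 62 libraries with a term per group and one for the second title number, two-sided F tests, and Benjamini-Hochberg adjustment over all tested genes of a comparison. A gene was called at adjusted p under 0.05. Standard errors (SE) were obtained from each log2 difference and its F statistic. Leave-outs kept the tested genes and trended dispersions of the full fit. Levels leave out libraries under 100000 counts. Levels of single genes use TMM factors, and marker sums use library totals alone. Symbols and exon lengths are from GENCODE vM21. Named list genes are up to 4 called genes with the smallest adjusted p per list in each untagged transgene comparison at 6 and 12 months, and likeness is Pearson r over group means of log2(CPM + 0.5). Alternatives were relative log expression and upper-quartile factors, DESeq2 1.42.0, no filter, no term for the second title number, a term for the first, a term for sex, and leaving out libraries.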

Additional observations from a re-analysis of the deposited data

Results flagged for a closer look

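Ptgs1 in APPPS1_12m replicate 35 lay at 699.7 CPM, apart from the other 4 libraries of the group at 821 to 859 CPM, with a gap that takes 0.76 of the group's range against a critical value of 0.71 for 5 libraries. Of 40 combinations of gene and group with at least 4 libraries, 1 was this far apart, and chance gives about 1 in 20. The same library held the lowest P2rx7 of all 61, at 99.3 CPM.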

How the results depend on the processing

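No paired analysis was possible because no replicate number is shared by groups. Of 50 member differences followed through the alternatives, 5 changed sign, all of size 0.16 or less and none called. The 50 leave out, among others, Nlrp3 loss in transgenic mice and the interaction in the Mxo4 set. Without replicate 56, Nlrp3 loss there turned from 0.15 to -0.17 for Tspo and from -0.01 to 0.08 for Ptgs1. The Mxo4 interaction of Tspo turned from 0.22 to -0.07. None of these was called. Tspo at 4 months with Nlrp3 was -0.0027 without a term for the second title number, -0.0359 with one for the first, and -0.1431 to 0.0744 in leave-outs. Cnr2 at 4 months without Nlrp3 was 0.0122 with relative log expression factors, 0.0143 with upper-quartile factors, 0.0034 without a filter, 0.0042 without the second-number term, 0.026 with the first-number term, 0.0021 with a sex term, 0.0035 without the library of 659 counts, 0.0122 in DESeq2, and -0.0924 to 0.0773 in leave-outs. Ptgs1 in that comparison ran from -0.0164 to 0.048 in leave-outs. Cnr2 in the Mxo4 set without Nlrp3 was -0.0193 with a sex term and -0.059 to 0.2296 in leave-outs. Cnr2 for Nlrp3 loss in transgenic mice at 12 months was 0.1944 with a sex term.

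Calls of the transgene differences changed as follows. Cnr2 in APPPS1 minus WT at 12 months lost its call with upper-quartile factors (0.3978), without a filter (0.4928) and with the first-number term (0.4741), and ran from 0.3754 to 0.5134 in leave-outs. Ptgs1 there ran from -0.4275 to -0.321. In the Mxo4 set, Tspo in APPPS1 minus WT lost its call without a filter (0.7964) and with the first-number term (0.7752), and ran from 0.6208 to 1.05. P2rx7 there was called with upper-quartile factors (-0.407) and DESeq2 (-0.367), and ran from -0.4613 to -0.2972. Cnr2 was called with a sex term (0.53) and ran from 0.2276 to 0.5411. Ptgs1 was called with upper-quartile factors (-0.3335) and DESeq2 (-0.2939). Of the age differences, P2rx7 in APPPS1_NLRP3 was called without the library of 659 counts (-0.344), with relative log expression factors (-0.3446), upper-quartile factors (-0.3801) and DESeq2 (-0.3447), and Cnr2 in APPPS1 lost its call with the first-number term (0.5163). For Nlrp3 loss in transgenic mice at 12 months, Ptgs1 was called with the same 4 alternatives as P2rx7 (0.3048 to 0.3425). With a sex term Ptgs1 was not called there (0.2997). The cause was not tested. Of 8 transgene comparisons P2rx7 was called in 2 with upper-quartile factors or DESeq2 and in 1 to 2 in leave-outs. Cnr2 was called in 1 with upper-quartile factors, no filter or the first-number term, in 3 with a sex term, and in 1 to 3 in leave-outs. Ptgs1 was called in 3 with DESeq2 or upper-quartile factors and in 1 to 2 in leave-outs, and Tspo in 4 to 5 in leave-outs. DESeq2 called over 1.5 times as many genes as edgeR in Nlrp3 loss at 12 months without (557 against 292) and with the transgenes (1831 against 1134), among others, and in the transgene comparisons at 12 months 4096 against 3590 and 2071 against 1727.

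The scalings and DESeq2 were run only together with leaving out the library of 659 counts, a choice made after seeing the data, and the versions with it were not run. The smallest count behind a level was 19, for Cnr2. Standard errors cover the spread between libraries only.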
